A study of Mus musculus with 16 samples.

Results

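The 10 genes described here encode the factors that signal and rejoin the DNA breaks made during V(D)J recombination: Atm, Trp53bp1, Prkdc, Dclre1c, Xrcc5, Xrcc6, Lig4, Xrcc4, Nhej1 and Polm. They were chosen by name, and the row of each was found through its Ensembl identifier. All 10 were listed in each of the 16 libraries, among 54113 gene identifiers common to all of them, and all 10 passed the filter on low counts in each comparison. RNA came from mouse thymic double-positive (DP) cells, which carry CD4 and CD8 together and were sorted by flow cytometry. The groups were METTL3 KO with no age stated (3 libraries), young METTL3 KO (3), old WT (4), young WT (3) and WT with no age stated (3). METTL3 is the enzyme that places the N6-methyladenosine mark on RNA. The labels give no strain, no age in weeks, no Cre line or deleted exon for the KO, and no word on pooling, and nothing in them says that the libraries of a group came from separate animals. The p-values therefore measure the spread between these libraries, which may be technical.

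V(D)J recombination assembles antigen receptor genes by cutting the chromosome at recombination signals, and DP thymocytes use it on the T cell receptor alpha locus. The RAG recombinase leaves hairpin-sealed coding ends, which classical non-homologous end joining opens, trims and ligates. Atm, a kinase, senses the break and holds the ends together, the Ku heterodimer of Xrcc6 (Ku70) and Xrcc5 (Ku80) binds the ends, and Prkdc (DNA-PKcs) with Dclre1c (Artemis) opens the hairpins. Lig4 with its partner Xrcc4, helped by Nhej1 (XLF), seals the ends, Polm is a polymerase that fills gaps at them, and Trp53bp1 (53BP1) protects broken ends from resection.

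Each METTL3 KO library without an age held 10575795 to 13740694 gene counts, each WT library without an age 15927134 to 16167074, and each of the 10 libraries with an age 9781368 to 10307780. Unaligned reads took up 50.5% to 52.2% of the entries of libraries without an age and 0.577% to 0.826% of those with one. Reads outside annotated genes took up 7.23% to 15.0% and 47.5% to 51.2% in the same order, so levels were compared within each set only. Mettl3 itself had 394, 441 and 357 counts in METTL3 KO without an age, against 835, 742 and 692 in WT without an age (log2 difference -0.58 ± 0.18 SE, adjusted p = 0.0189). In the libraries labelled young METTL3 KO it had 626, 653 and 647 counts, against 678, 656 and 591 in young WT (0.00 ± 0.09, adjusted p = 1), so the gene count does not separate those libraries from young WT. Which part of the gene was deleted is not given in the labels. Of the 10 DP markers, none was at 0 in any library, and their summed level was 7735 to 9459 CPM in METTL3 KO without an age, against 14170 to 15910 CPM in WT without an age. The 10 include Rag1 and Rag2, which with Dntt summed to 2267 to 2746 CPM in METTL3 KO and 7173 to 8628 CPM in WT. Of the 10, 4 were lower and 0 higher at an adjusted p under 0.05 in edgeR, with a median log2 difference of -0.25. Over all genes tested, 24% were lower and 29.9% higher. In libraries with an age the 10 DP markers summed to 11190 to 15080 CPM.

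In mice the 10 genes differ widely in size. On mm10, Atm lies on the minus strand of chromosome 9 at 53439149 to 53536740 with 62 exons in its longest annotated transcript and 10338 bp of annotated exon. Prkdc lies on the plus strand of chromosome 16 at 15637866 to 15842235 and has 86 exons and 13187 bp. Lig4 lies on the minus strand of chromosome 8 at 9969049 to 9977686 and has 2 exons and 5202 bp. Nhej1 is the shortest of the 10 by annotated exon, with 1118 bp in 5 exons on the minus strand of chromosome 1 at 74967139 to 75125200. Polm, on the minus strand of chromosome 11 at 5827860 to 5838016, has 3658 bp and the highest GC content of the 10, 56.3% in its longest transcript. Dclre1c has the lowest, 39.6%, and lies on the plus strand of chromosome 2 at 3424131 to 3464130.

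The promoters of the 2 genes that were lowest in METTL3 KO without an age relative to WT, and of the 2 that were higher, are shown so that their sequence features can be set beside the counts. They are 300 bases each around the RefSeq start of GRCm38.p6, read 5′ to 3′ on the gene's strand, with capitals for matches on either strand to 4 motifs, those of NRF1, the GC box, the CCAAT box and ETS factors. The Atm promoter lies at chr9:53536622-53536921, that of Lig4 at chr8:9977631-9977930, that of Polm at chr11:5837967-5838266 and that of Nhej1 at chr1:75125177-75125476, all on the minus strand.

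Atm: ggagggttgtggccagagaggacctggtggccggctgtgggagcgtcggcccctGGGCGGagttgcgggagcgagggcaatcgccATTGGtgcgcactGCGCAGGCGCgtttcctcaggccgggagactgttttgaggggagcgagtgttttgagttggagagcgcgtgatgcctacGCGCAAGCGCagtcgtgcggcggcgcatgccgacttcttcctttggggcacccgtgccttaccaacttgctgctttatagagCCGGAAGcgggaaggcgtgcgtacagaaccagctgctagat

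Lig4: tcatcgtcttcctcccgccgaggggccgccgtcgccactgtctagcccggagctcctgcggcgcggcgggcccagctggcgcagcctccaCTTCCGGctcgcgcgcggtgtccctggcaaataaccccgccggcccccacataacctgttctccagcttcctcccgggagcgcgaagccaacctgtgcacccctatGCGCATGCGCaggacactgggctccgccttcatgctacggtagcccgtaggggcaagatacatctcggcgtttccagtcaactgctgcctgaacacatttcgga

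Polm: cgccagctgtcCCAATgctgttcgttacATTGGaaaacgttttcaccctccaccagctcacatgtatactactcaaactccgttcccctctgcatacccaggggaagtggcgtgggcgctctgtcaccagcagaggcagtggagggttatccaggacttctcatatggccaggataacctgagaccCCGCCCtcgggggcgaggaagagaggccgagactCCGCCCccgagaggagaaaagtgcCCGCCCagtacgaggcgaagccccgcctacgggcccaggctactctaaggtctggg

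Nhej1: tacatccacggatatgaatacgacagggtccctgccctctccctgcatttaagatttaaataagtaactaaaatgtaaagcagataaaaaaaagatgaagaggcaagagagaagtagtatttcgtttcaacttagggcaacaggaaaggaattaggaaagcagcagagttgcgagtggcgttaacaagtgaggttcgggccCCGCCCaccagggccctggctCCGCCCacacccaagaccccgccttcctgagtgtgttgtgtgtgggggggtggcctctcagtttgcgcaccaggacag

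Of the 10 genes, 9 had a promoter in the RefSeq table and Prkdc had none. The NRF1 motif was searched as GCGCA and GCGC with any base between them. It was in 2 of the 9, Atm with 2 matches and Lig4 with 1, and in 4.59% of the 32817 promoters in the table. The GC box, GGGCGG, was in 7 of the 9, against 35.6% of all promoters, with 3 matches in Polm and 2 in Nhej1 and none in Lig4. The CCAAT box, searched by the letters of its name, was in 5 of the 9 (37.4% of all). The ETS motif, CCGGAAG, was in 4 (8.86% of all). These are matches of letters and were tied to no measurement of binding. The Xrcc6 promoter in that table, with 3 GC box matches, lies 28534 bp from the GENCODE start of the gene. The shares over all promoters were not limited to expressed genes.

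The clearest differences among the repair genes lay between the libraries without an age. Of the 10 genes, 6 were lower and 2 higher in METTL3 KO than in WT at an adjusted p under 0.05 (edgeR quasi-likelihood test, Benjamini-Hochberg over 16432 genes). Calls were common in this comparison: 53.9% of all genes passed, 29.9% higher and 24% lower in METTL3 KO. The median log2 difference of the 10 was -0.51, against 0.08 over all genes tested. In bulk RNA, fewer cells of a type and less RNA per cell cannot be told apart.

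Atm, the kinase at the head of the break response, had the largest difference of the 10. It had 108, 178 and 121 counts in METTL3 KO without an age, or 8.92, 15.6 and 9.14 CPM (gene counts scaled by the TMM-adjusted library total). In WT without an age it had 843, 747 and 1090 counts, or 55.1, 47.5 and 71.0 CPM. Every METTL3 KO library lay below every WT library, and the highest METTL3 KO value was well under the lowest WT value. The log2 difference was -2.37 ± 0.26 (5.17-fold lower, 95% interval -2.93 to -1.81, adjusted p = 9.01e-05), and 1.7% of the genes tested lay lower. Trp53bp1, the other chromatin-bound member of this response, fell by less and with little scatter: it had 44.3, 43.0 and 46.5 CPM in METTL3 KO without an age, against 59.2, 59.9 and 62.2 CPM in WT. The groups did not overlap, and the log2 difference was -0.44 ± 0.15 (adjusted p = 0.0272). That call was lost with library size alone (adjusted p = 0.0708), with a block for the replicate number (0.0853) and without any of the 3 WT libraries (0.0511 to 0.0619). Of the annotated exon of Trp53bp1, 15% (2130 bp) overlaps Tubgcp4 on the other strand, a gene at -1.50 ± 0.26 (adjusted p = 0.000791). The strand setting of the counting is not given in the sources used here, so the split of reads between the pair is uncertain.

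The hairpin-opening pair fell by about equal amounts, close to those of long and GC-poor genes as a class, given further on. Prkdc, the catalytic subunit of DNA-PK, had 49.0, 50.6 and 43.7 CPM in METTL3 KO without an age, against 73.3, 54.7 and 87.4 CPM in WT without an age. All METTL3 KO libraries were lower than all WT libraries, but WT replicate 2 lay close to them. The log2 difference was -0.59 ± 0.19 (1.50-fold lower, adjusted p = 0.0208), and it missed the threshold without WT replicate 3 (adjusted p = 0.0725) and with library size alone (0.0549). With a block for the replicate number it was not called either (0.0614). Dclre1c, the Artemis nuclease, had 86.0, 99.5 and 54.6 CPM in METTL3 KO without an age, against 115.1, 102.9 and 140.2 CPM in WT. Its groups touched closely, at 99.5 and 102.9 CPM, without overlapping. The difference was -0.58 ± 0.22 (1.49-fold lower, adjusted p = 0.0412). It was no longer called with DESeq2 size factors (0.0576), library size alone (0.124), a filter of 1 CPM in 3 libraries (0.0570) or a block for the replicate number (0.0774). Nor was it called without WT replicate 1 (0.0531), WT replicate 3 (0.114) or METTL3 KO replicate 1 (0.0649). Dclre1c shares 357 bp of exon with Suv39h2 on the other strand (-1.27 ± 0.26, adjusted p = 0.00177).

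Neither gene of the Ku heterodimer, which loads onto the broken ends, was called. Xrcc6 had 415.3, 386.6 and 491.5 CPM in METTL3 KO without an age, against 478.2, 452.4 and 361.6 CPM in WT without an age. The groups overlapped over most of their range, and the log2 difference was 0.00 ± 0.17 with a 95% interval of -0.36 to 0.37 (adjusted p = 0.995). Xrcc5 had 23.0, 19.4 and 17.6 CPM in METTL3 KO, against 19.0, 18.2 and 24.7 CPM in WT. The difference was -0.05 ± 0.21, with an interval of -0.50 to 0.41 (adjusted p = 0.866), so a change of the size seen for Atm or Lig4 lay outside both intervals. Xrcc6 shares 344 bp of exon with Desi1 on the other strand, which was at 0.00 ± 0.20 (adjusted p = 0.999).

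Both genes of the ligation complex fell. Lig4, the ligase that seals the ends, had 43.2, 59.8 and 39.6 CPM in METTL3 KO without an age, against 144.7, 132.1 and 165.2 CPM in WT without an age. The highest METTL3 KO library was below the lowest WT library by more than 2 times. The log2 difference was -1.63 ± 0.19 (3.10-fold lower, 95% interval -2.04 to -1.22, adjusted p = 0.000115). Xrcc4, which stabilises the ligase, had 10.9, 10.8 and 8.39 CPM in METTL3 KO, against 18.6, 18.3 and 22.2 CPM in WT, a difference of -0.98 ± 0.22 (1.97-fold lower, adjusted p = 0.00312). Its groups did not overlap either. The ratio of Lig4 to Xrcc4 in level per kilobase of exon was 3.84 ± 0.64 in METTL3 KO without an age and 6.06 ± 0.24 in WT without an age (SD, n = 3 each). That ratio was a description and was not tested.

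Nhej1, the filament partner of Xrcc4, went the other way. It had 170, 88 and 197 counts in METTL3 KO without an age, or 14.0, 7.71 and 14.9 CPM, against 109, 83 and 108 counts, or 7.12, 5.28 and 7.03 CPM, in WT without an age. METTL3 KO replicate 2 lay just above the WT libraries, while replicates 1 and 3 were well above them. The log2 difference was 0.92 ± 0.30 (1.89-fold higher, adjusted p = 0.0225). The call was kept in 1 of the 6 fits that left out a library, that without METTL3 KO replicate 2, and the others gave adjusted p of 0.0553 to 0.110. It was also lost with no filter on low counts (0.0583). Polm, the gap-filling polymerase, had 79.0, 58.2 and 46.0 CPM in METTL3 KO, against 23.5, 34.2 and 26.2 CPM in WT. All METTL3 KO libraries were higher than all WT libraries, by a log2 difference of 1.13 ± 0.23 (2.18-fold higher, 95% interval 0.63 to 1.62, adjusted p = 0.00174).

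**Figure D1:**
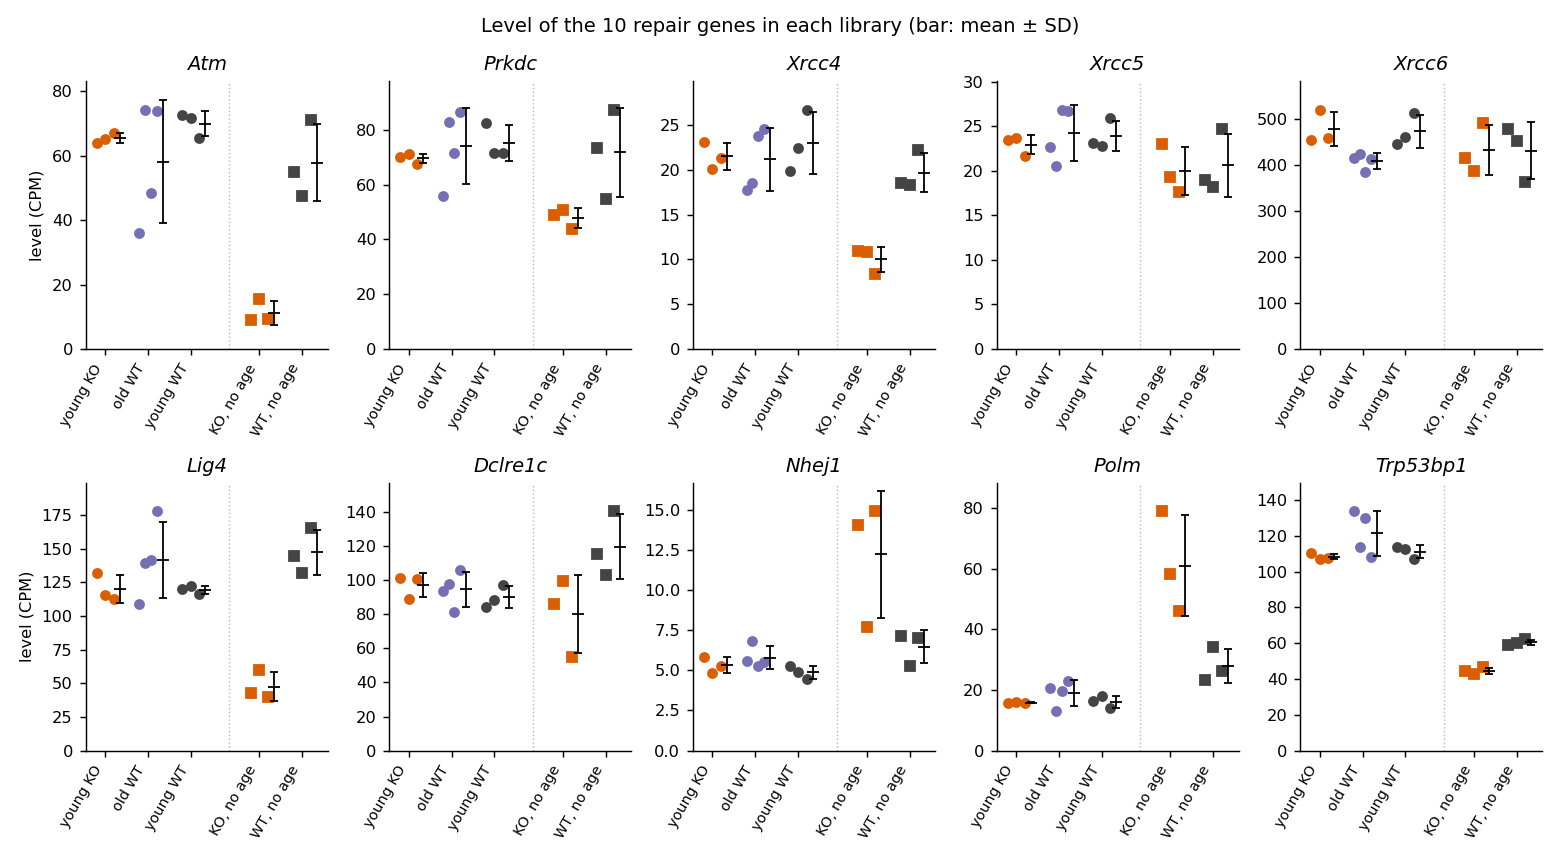
Level of each of the 10 genes in CPM (linear axis from 0) in each library, 1 panel per gene. Circles are libraries with an age and squares those without, orange for METTL3 KO, purple for old WT and dark grey for WT, with the mean ± SD beside each group (n = 4 for old WT, 3 for the others). Atm lies between 8.92 and 15.6 CPM in METTL3 KO without an age and between 47.5 and 71.0 CPM in WT without an age, while the groups with an age overlap.

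The CPM ranges of METTL3 KO and WT did not overlap in 8 of the 10 genes, the same 8 that were called, against 63.8% of all genes tested. Calls on Atm, Lig4, Xrcc4 and Polm were kept under each of the 8 other settings and each of the 6 fits that left out 1 library. Over those fits without a library, the log2 difference of Atm lay between -2.76 and -2.25 and that of Lig4 between -1.91 and -1.58.

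Differences in this comparison moved with the length and GC content of genes in general. Genes in the shortest 20% by annotated exon had a median log2 difference of 0.63, those in the longest 20% one of -0.34. By GC content, the medians ran from -0.43 in the poorest 20% to 0.54 in the richest 20%. Atm, Prkdc, Dclre1c and Trp53bp1 were in the longest 20%, Atm, Prkdc, Xrcc4, Lig4 and Dclre1c in the GC-poorest, Nhej1 in the shortest and Polm in the GC-richest. Over 894 genes in both the longest and the GC-poorest 20%, the median log2 difference from the WT mean was taken per library. It was -0.64, -0.56 and -0.90 in METTL3 KO replicates 1 to 3 without an age, and -0.16 to 0.19 in the WT libraries. Prkdc (-0.59) and Dclre1c (-0.58) belong to that class, as does Atm (-2.37). Reads outside annotated genes made up 11.8% to 15.0% of entries in METTL3 KO without an age and 7.23% to 7.60% in WT without an age. With an offset for length and GC content, an alternative chosen after seeing the data, Atm remained at -2.12 (adjusted p = 1.77e-05), Lig4 at -1.43 (2.59e-05), Xrcc4 at -0.83 (0.00333), Trp53bp1 at -0.56 (0.00747), Prkdc at -0.41 (0.0399) and Polm at 0.61 (0.0344). Nhej1 was then at 0.09 (0.811), Dclre1c at -0.33 (0.0668) and Xrcc6 at -0.335 (0.0525), and none of them was called. The offset moved the median of all genes to -0.24, against 0.08 without it, and the split of called genes to 3646 higher and 5636 lower, against 4919 higher and 3945 lower. Relative to that median, Atm stood at -1.88 with the offset and -2.45 without it, Lig4 at -1.20 and -1.71, Prkdc at -0.17 and -0.67, and Polm at 0.85 and 1.05.

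**Figure D2:**
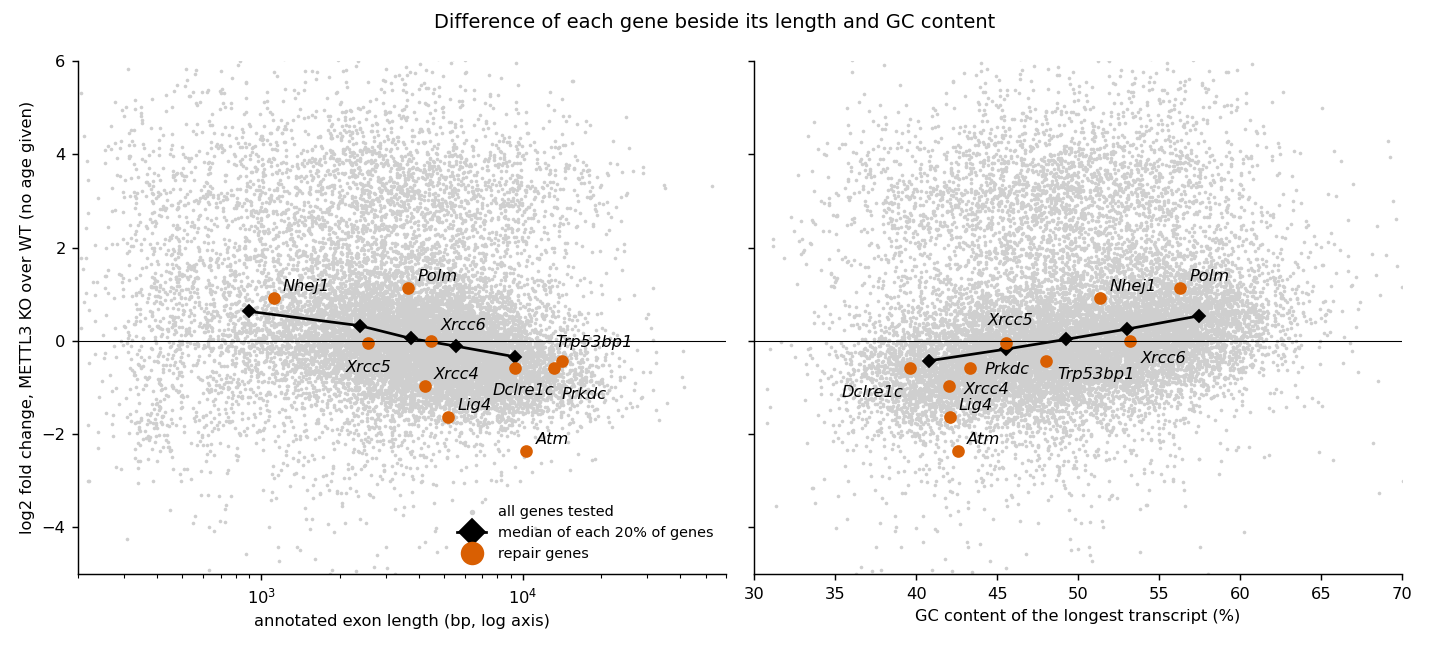
Log2 difference of METTL3 KO over WT without an age for all genes tested (grey; values beyond the axis are not drawn) against annotated exon length on a log axis (left) and GC content of the longest transcript in percent (right). Black diamonds are medians of each 20% of genes, which run from 0.63 in the shortest to -0.34 in the longest genes and from -0.43 to 0.54 with rising GC content. Atm (-2.37) and Lig4 (-1.63) lie below the medians at their length and GC content.

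Marker lists were summed in the same comparison, in which 24% of all genes were called lower and 29.9% higher. The summed level of 14 proliferation markers was 2139 to 2475 CPM in METTL3 KO without an age, against 3894 to 4136 CPM in WT without an age, with 11 of 14 called lower. B cell markers summed to 704.7 to 1147 CPM in METTL3 KO, against 529.3 to 627.7 CPM in WT, with 7 of 9 called higher and none at 0 in the METTL3 KO libraries. Ighm made up most of that sum, at 649.4 to 1088 CPM in METTL3 KO and 502.6 to 601.9 CPM in WT. Myeloid markers summed to 29.6 to 39.9 CPM in METTL3 KO and 15.6 to 22.1 CPM in WT, with 2 of 6 tested called higher and up to 2 of the 8 at 0 in a library of either group. That count is near the share over all genes. Early thymocyte markers, also with 2 of 6 called higher, summed to 133.2 to 175 CPM in METTL3 KO and 122.8 to 157.9 CPM in WT. The part of these markers in the repair gene differences was not tested.

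Genes next to the members were looked at because they start close by on the other strand or share exons. Atm and Npat, which activates histone genes, start 307 bp apart on opposite strands. Npat was at -0.54 ± 0.22 (adjusted p = 0.0587), not called, beside -2.37 for Atm. Lig4 starts 21 bp from Abhd13, which was called lower at -1.26 ± 0.21 (adjusted p = 0.000591). Prkdc starts 466 bp from Mcm4, a subunit of the replicative helicase, which fell by 1.22 ± 0.21 on the log2 scale (adjusted p = 0.000665), further than Prkdc did. Xrcc4 and Tmem167 share 112 bp of exon, and Tmem167 was also lower (-1.12 ± 0.18, adjusted p = 0.000441).

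Other repair genes of the same comparison were described by lists chosen with earlier results of these data known. Of 14 genes that sense breaks or work with 53BP1, 6 were called lower and 2 higher, with a median of -0.28, beside 24% lower and 29.9% higher over all genes tested. Among them Rif1, the effector that 53BP1 recruits, was at -1.53 ± 0.24 (adjusted p = 0.000458), and Mre11a, the nuclease of the complex that activates Atm, at -0.97 ± 0.17 (0.000846). Rnf8, a ubiquitin ligase that acts upstream of 53BP1, was higher at 1.87 ± 0.30 (0.000488). Of 9 other end-joining factors, 2 were higher and 2 lower (median 0.32), with Poll, a polymerase related to Polm, at 1.89 ± 0.39 (0.0021) and Paxx, which binds Ku, at 0.83 ± 0.22 (0.00735), while the end-processing enzyme Tdp1 was at -0.64 ± 0.17 (0.00836).

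Of 7 alternative end-joining genes, 4 were lower and 1 higher (median -0.78), beside 24% lower and 29.9% higher over all genes tested. Lig3, the ligase of that pathway, was at -1.51 ± 0.20 (adjusted p = 0.000217), Parp1 at -0.83 ± 0.17 (0.00185) and Rbbp8, which starts resection, at -0.78 ± 0.16 (0.00192). Of 16 homologous recombination genes, 6 were lower and none higher (median -0.39), with Brca1 at -0.99 ± 0.21 (0.00256) and Rad51d at -0.69 ± 0.18 (0.00794). Of 9 genes of the Atr branch, the response to replication stress, 3 were lower and 1 higher (median -0.43), with Hus1 at -1.51 ± 0.25 (0.000653), Atr at -0.76 ± 0.20 (0.00788) and Rad9a at 0.58 ± 0.18 (0.0185). Of 12 tested p53 target genes, 4 were lower and 1 higher (median -0.03), Trp53inp1 at -1.62 ± 0.18 (0.000103), Ccng1 at -1.23 ± 0.17 (0.000261) and Bax, which promotes cell death, at 1.18 ± 0.23 (0.0014). The recombinase genes that make the breaks and edit their ends all fell, with Rag1 at -2.44 ± 0.19 (4.11e-05), Rag2 at -1.25 ± 0.23 (0.00103) and Dntt, which adds untemplated bases, at -0.68 ± 0.20 (0.0149). Dntt was also counted above among the lower genes of the other end-joining factors. Those shares over all genes stand beside the count of each list here, and the median over all genes tested was 0.08.

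Between young METTL3 KO and young WT, none of the 10 repair genes passed, and 0% of 14228 genes did (edgeR; 88 genes and none of the 10 had an unadjusted p under 0.05, and DESeq2 and limma-voom called no gene). The median log2 difference of the 10 was -0.03, against 0.00 over all genes. Atm had 64.0, 65.1 and 67.0 CPM in young METTL3 KO, against 72.5, 71.8 and 65.6 CPM in young WT, and the groups overlapped. Its log2 difference was -0.10 ± 0.22, with a 95% interval of -0.58 to 0.38. The fit shared its estimate of spread with old WT, so this interval also reflects libraries outside the comparison. The coefficient of variation of Atm was 32.9% in old WT, 2.34% in young METTL3 KO and 5.43% in young WT. Lig4 had 131.7, 115.7 and 113.0 CPM in young METTL3 KO, against 119.8, 122.0 and 116.5 CPM in young WT (0.01 ± 0.14, interval -0.30 to 0.31). Falls of the size called for these 2 genes without an age lay outside those intervals.

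Prkdc was the only one of the 10 whose young groups did not overlap, with 70.1, 71.1 and 67.7 CPM in young METTL3 KO, against 82.7, 71.7 and 71.4 CPM in young WT. The gap between the groups was narrow, the log2 difference was -0.11 ± 0.14 (adjusted p = 1), and 9.26% of all genes had groups that did not overlap. The rest lay close to 0. Xrcc6 had 453.3, 519.2 and 458.9 CPM in young METTL3 KO, against 444.5, 460.2 and 512.5 CPM in young WT (0.01 ± 0.10). Polm had 15.6, 16.1 and 15.8 CPM in young METTL3 KO, against 16.4, 18.0 and 14.0 CPM in young WT (-0.03 ± 0.18). Over the 10 genes the log2 difference ran from -0.11 to 0.13, and their intervals from -0.58 to 0.54.

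Between old and young WT, none of the 10 genes was called either, beside 0.253% of all genes (36 of 14228, edgeR). The median of the 10 was 0.05, against 0.01 over all genes, and 1 of the 10, Xrcc6, had an unadjusted p under 0.05, against 12.1% of all genes. DESeq2 and limma-voom called none of the 10. This comparison and that of young METTL3 KO share the young WT libraries. Xrcc6, the Ku70 subunit, had 415.1, 422.2, 383.0 and 413.1 CPM in old WT, against 444.5, 460.2 and 512.5 CPM in young WT. All 4 old libraries were below all 3 young ones, the log2 difference was -0.21 ± 0.09 (1.16-fold lower, edgeR adjusted p = 0.379), and 9.78% of all genes had groups that did not overlap. Desi1, which shares exon with Xrcc6 on the other strand, was at -0.19 ± 0.11 with age (edgeR adjusted p = 0.509). The split of reads between that pair is uncertain. The only other gene of the 10 without overlap was Nhej1, with 5.57, 6.84, 5.27 and 5.51 CPM in old WT, against 5.26, 4.91 and 4.43 CPM in young WT. Its difference was 0.25 ± 0.18 (adjusted p = 0.589), on 44 to 69 counts per library.

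Atm divided the old WT libraries. Replicates 1 and 3 had 36.0 and 48.4 CPM (368 and 450 counts), and replicates 2 and 4 had 74.2 and 73.9 CPM (749 and 765 counts), against 72.5, 71.8 and 65.6 CPM in young WT. The coefficient of variation of Atm was 32.9% in old WT and 5.43% in young WT. The log2 difference was -0.27 ± 0.21 (adjusted p = 0.622), and -0.10 without old WT replicate 1 and -0.41 without replicate 4, neither called. Prkdc had 55.8, 83.0, 71.5 and 86.5 CPM in old WT replicates 1 to 4, against 82.7, 71.7 and 71.4 CPM in young WT, so replicate 1 was the lowest of the 7. Its difference was -0.02 ± 0.13.

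Long and GC-poor genes as a class were also low in those old WT libraries. Over 847 genes in both the longest and the GC-poorest 20%, which include Atm, Prkdc and Dclre1c, the median log2 difference from the young WT mean was -0.19 in old WT replicate 1 and -0.23 in replicate 3, and 0.02 and 0.10 in replicates 2 and 4, against -0.03 to 0.01 in the young WT libraries. With the length and GC offset the Atm difference was -0.25 (adjusted p = 0.522). Old WT replicate 3 also had the highest summed level of B cell (1748 CPM), myeloid (127.1 CPM) and mature single-positive markers (615.3 CPM), against at most 490.3, 25.0 and 349.7 CPM in young WT. The 3 recombinase genes summed to 5771 CPM in each of old WT replicates 1 and 3 and to 8708 and 8768 CPM in replicates 2 and 4, against 7780 to 9405 CPM in young WT. The 10 DP markers summed to 11490 and 11190 CPM in old WT replicates 1 and 3 and to 14090 and 15080 CPM in replicates 2 and 4, against 13230 to 15040 CPM in young WT, and none was at 0. Rag1 and Rag2 belong to both lists, so the DP and recombinase sums are not separate observations. The summed level of 14 p53 targets divided the old libraries in the same way, at 1658 and 1457 CPM in replicates 1 and 3 and 2356 and 2355 CPM in replicates 2 and 4, against 1856 to 2022 CPM in young WT. A few abundant genes can carry such a sum. Gene by gene, 7 of the 12 tested targets had a log2 difference above 0 with age (median 0.07). The part of any of these in the Atm values was not tested.

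**Figure D3:**
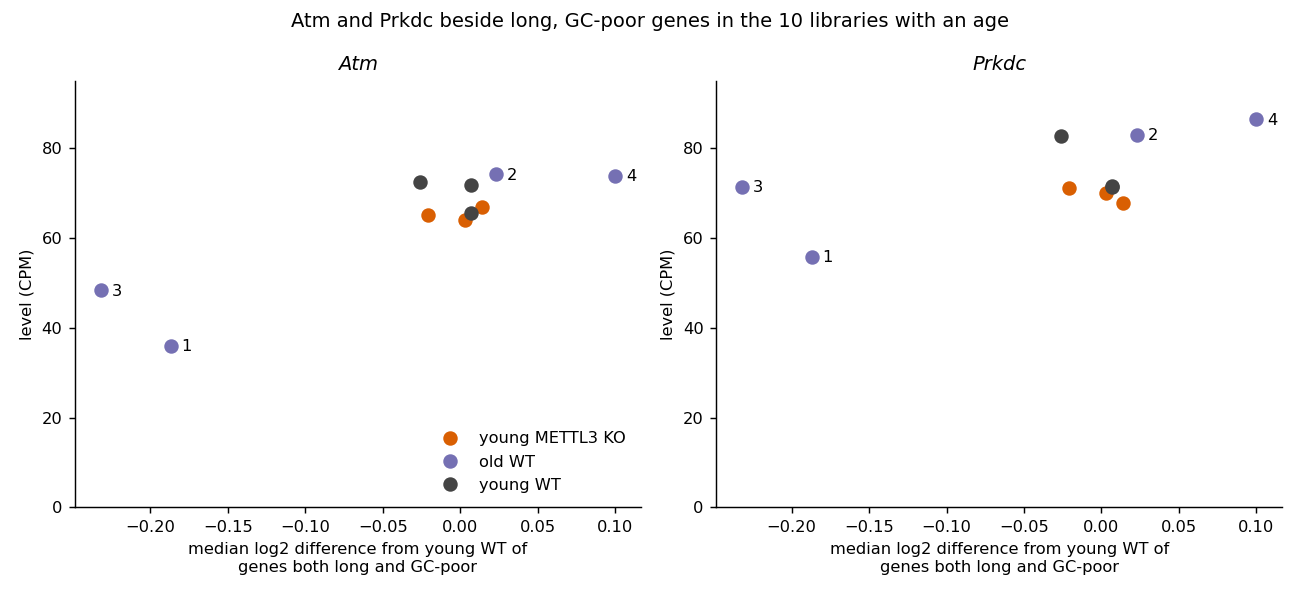
Level of Atm (left) and Prkdc (right) in CPM, on a linear axis from 0, against the median log2 difference from the young WT mean of 847 long and GC-poor genes, in the 10 libraries with an age. Each point is a library, numbered for old WT. Old WT replicates 1 and 3, at -0.19 and -0.23, have 36.0 and 48.4 CPM of Atm, and the other 8 libraries have 64.0 to 74.2 CPM.

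Lig4 had 108.6, 139.2, 141.7 and 177.7 CPM in old WT, against 119.8, 122.0 and 116.5 CPM in young WT (log2 difference 0.25 ± 0.13, adjusted p = 0.466). Old WT replicate 4 was the highest and replicate 1 lay below the young libraries. Xrcc4 had 17.8, 18.5, 23.8 and 24.5 CPM in old WT, against 19.9, 22.5 and 26.7 CPM in young WT (-0.12 ± 0.15). Polm had 20.8, 13.1, 19.7 and 22.9 CPM in old WT, against 16.4, 18.0 and 14.0 CPM in young WT (0.25 ± 0.17). In both genes the groups overlapped. Trp53bp1 had 133.6, 113.6, 130.2 and 107.9 CPM in old WT, against 113.8, 112.5 and 107.0 CPM in young WT (0.13 ± 0.09), and was highest in replicates 1 and 3, where Atm was lowest. Xrcc5 (0.02 ± 0.12) and Dclre1c (0.07 ± 0.10) had overlapping groups.

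None of the genes in the lists of other repair pathways was called with age or in young METTL3 KO in edgeR. At an unadjusted p under 0.05, 2 of 14 break-sensing genes, 1 of 9 other end-joining genes and 2 of 12 p53 targets passed with age, against 12.1% of all genes, and 0 in the other repair lists. In young METTL3 KO 0 of any of them passed, against 0.618% of all genes. With age, the smallest p among them was that of Cyren, a regulator of end joining (0.52 ± 0.12, adjusted p = 0.124). Trp53 was at 0.32 ± 0.13 (0.368), Rif1 at -0.31 ± 0.14 (0.387) and the p53 target Sesn2 at 0.69 ± 0.19 (0.223).

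**Figure D4:**
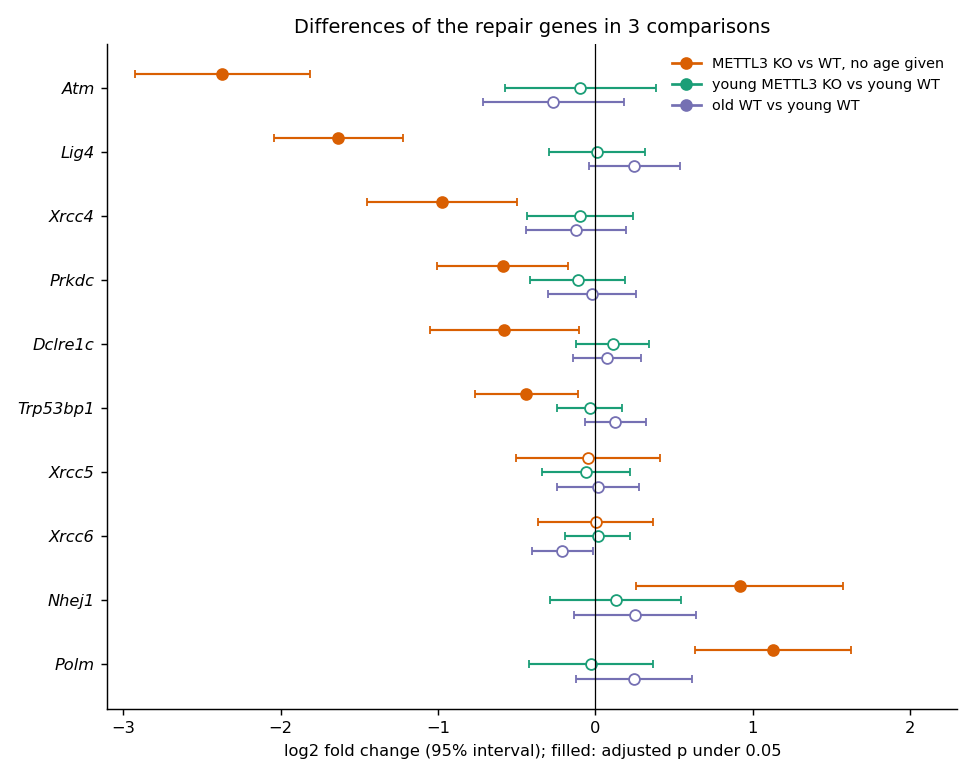
Log2 fold change of the 10 genes with its 95% interval in METTL3 KO over WT without an age (orange), young METTL3 KO over young WT (green) and old WT over young WT (purple). Filled points have an adjusted p under 0.05 in edgeR. In the set without an age 8 of 10 points are filled, from -2.37 for Atm to 1.13 for Polm, and in the other comparisons none is, with values between -0.27 and 0.25.

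Whether the METTL3 KO difference was unequal between the sets was tested by an interaction term between genotype and set in a fit of 12 libraries, which were scaled together, so its values are not exactly the difference of those from the separate fits. Of the 10 genes 5 passed, 2 with a difference above 0 and 3 below it, against 36.9% of all genes, 19.2% above 0 and 17.7% below. The difference without an age minus that in young libraries was -2.10 ± 0.27 for Atm (adjusted p = 7.46e-05), -1.47 ± 0.20 for Lig4 (0.000123), -0.71 ± 0.23 for Xrcc4 (0.0253), 0.96 ± 0.35 for Nhej1 (0.0421) and 1.32 ± 0.29 for Polm (0.00253). The median of all genes was 0.14, so relative to it Atm stood at -2.24, Lig4 at -1.61, Xrcc4 at -0.85, Nhej1 at 0.81 and Polm at 1.18. Nhej1 kept its call in 1 of the 12 fits that left out a library, that without METTL3 KO replicate 2 of the set without an age, and lost it with library size alone (0.0547), limma-voom (0.064) and no filter on low counts (0.21). Xrcc4 was not called with a block for the replicate number (-0.72, 0.0731). With the length and GC offset, Nhej1 was at 0.27 (0.6) and Polm at 0.70 (0.0582), and the split of all called genes was 1740 higher and 4673 lower, against 3175 higher and 2929 lower without it. With no filter on low counts that split was 2425 higher and 4263 lower. Prkdc (-0.30 ± 0.20, adjusted p = 0.247), Dclre1c (-0.51 ± 0.25, 0.126) and Trp53bp1 (-0.24 ± 0.13, 0.153) were called lower without an age and not in young METTL3 KO, but the sets were not shown to differ in them in the fit as reported. With no filter on low counts, Prkdc (-0.57, adjusted p = 0.0339) and Dclre1c (-0.78, 0.000919) passed, with the median of all genes at 0.50. With 1 library left out, Trp53bp1 passed in 9 of 12 fits, Dclre1c in 4 and Prkdc in 3, and Trp53bp1 also passed with the length and GC offset (-0.51, adjusted p = 0.00932). The sets differ in the genes listed and in their shares of unaligned reads and of reads outside genes. These differences and whatever the missing age stands for cannot be told apart.

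Levels between genes were compared as CPM per kilobase of annotated exon. Xrcc6 had the highest level of the 10 in every group, at 96.3 ± 12.1 in METTL3 KO without an age, 96.2 ± 13.7 in WT without an age, 106.6 ± 8.17 in young METTL3 KO, 91.2 ± 3.88 in old WT and 105.5 ± 7.95 in young WT CPM per kilobase. In young WT that exceeded 97.3% of the genes tested. Its heterodimer partner Xrcc5 lay far below it, and the ratio of Xrcc6 to Xrcc5 per kilobase was 12.6 ± 2.97 in METTL3 KO without an age, 12.3 ± 3.41 in WT without an age, 11.9 ± 0.75 in young METTL3 KO, 9.79 ± 1.63 in old WT and 11.3 ± 0.30 in young WT. The size of that ratio depends on the length used: per kilobase of the longest transcript, young WT had 143.3 for Xrcc6 and 9.37 for Xrcc5. Desi1, which shares exon with Xrcc6, was at 120.2 CPM per kilobase in young WT, and the split of reads between them is uncertain. Lig4 was second in young METTL3 KO (23.1 ± 1.94), old WT (27.3 ± 5.43), young WT (23.0 ± 0.53) and WT without an age (28.3 ± 3.21 CPM per kilobase), with no overlap with the genes next to it.

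In METTL3 KO without an age the order was another. Polm was second (16.7 ± 4.56 CPM per kilobase), then Nhej1 (10.9 ± 3.51), Lig4 (9.14 ± 2.07), Dclre1c (8.59 ± 2.47) and Xrcc5 (7.82 ± 1.07), and each of these overlapped the next in range. Prkdc (3.62 ± 0.27), Trp53bp1 (3.15 ± 0.12), Xrcc4 (2.38 ± 0.34) and Atm (1.09 ± 0.37) followed without overlap. This order depends on the length used. Per kilobase of the longest transcript, Trp53bp1 (4.63) lay above Prkdc (3.78) in this group, and Dclre1c (11.3) above Lig4 (9.45). In WT without an age, Trp53bp1 moved from place 10 to place 6 by that length. In WT without an age Atm was at 5.60 ± 1.16 CPM per kilobase and overlapped Nhej1 above it (5.79 ± 0.93) and Prkdc below it (5.45 ± 1.24). In young WT the lower places, from Prkdc (5.71 ± 0.49) through Xrcc4 (5.46 ± 0.82) and Polm (4.41 ± 0.55) to Nhej1 (4.35 ± 0.37), each overlapped the next.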

How the data were processed

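The 10 genes and the gene lists were chosen with earlier results of these data known. The authors deposited raw read counts per gene and library, which end in 5 summary lines (such as reads outside genes and reads not aligned); these lines were left out of library sizes and tests. The submitters' processing notes name HISAT2 2.0.5 and the build mm10. Which program did the counting, on which annotation and with which strand option, is not given in the sources used here. Per the labels' protocols, Trizol and a column kit gave the RNA and BGI's procedure the libraries. Lengths, GC content and coordinates came from GENCODE M21 on mm10, and promoters from RefSeq on GRCm38.p6.

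The main test was edgeR 4.0.16 (R 4.3.3, limma 3.58.1): filterByExpr, TMM scaling, a robust quasi-likelihood fit and Benjamini-Hochberg adjustment over all genes tested, two-sided, threshold 0.05. The 3 groups with an age were fitted together (10 libraries), those without an age alone (6), and the interaction over 12. Values are CPM on the TMM scale, means ± SD, and log2 differences ± SE. The named genes are the 10, the 3 tested genes of smallest p in each list described, genes that overlap or adjoin a member, and the genes most alike in pattern. A result that this rule names is not reported here. Ighm was chosen after its values were seen. Alternatives were DESeq2 1.42.0, its size factors, library size alone, no filter, 1 CPM in 3 libraries, limma-voom, a block for the replicate number, the compared groups alone and each library left out, and, added after seeing the data, a length and GC offset. The procedure was tested on simulated data. Total gene counts of 9781368 to 16167074 per library bound the precision of the counts. No pair of libraries of a group agreed within sampling noise (chi-square per degree of freedom 3.2 to 73.7). Tables and figures were made in Python 3.11.15 (pandas 2.3.3, matplotlib 3.10.9, scipy 1.17.1). Splicing was not analysed here.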

Additional observations from a re-analysis of the deposited data

Results flagged for a closer look

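In 5 of the 10 repair genes, the METTL3 KO difference without an age and that in young libraries were unequal by the interaction of genotype and set (edgeR, 12 libraries scaled together, so that it is not exactly the difference of the separate fits), against 36.9% of all genes tested. For Atm, the difference without an age minus that in young libraries was -2.10 on the log2 scale, with -2.37 without an age and -0.10 in young libraries. For Lig4 it was -1.47, with -1.63 without an age and 0.01 in young libraries. For Xrcc4 it was -0.71, with -0.98 and -0.10 in the same order, for Nhej1 0.96, with 0.92 and 0.13, and for Polm 1.32, with 1.13 and -0.03. Nhej1 lost this call in 11 of the 12 fits that left out a library, with library size alone, limma-voom and no filter on low counts, and with the length and GC offset, as did Polm with the offset. Xrcc4 lost it with a block for the replicate number (adjusted p = 0.0731). Within old WT, the only group of 4 or more libraries, no single library passed Dixon's 95% critical value in any of the 10 genes, a test that does not look for a division into pairs.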

How the results depend on the processing

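With 3 or 4 libraries per group, the 95% intervals of the 10 genes ran from -0.715 to 0.639 with age and from -0.577 to 0.543 in young METTL3 KO on the log2 scale at the widest. Their spread was estimated over all groups with an age together, old WT included. The sets were not levelled with each other, the strand setting is unknown, and 4 of the genes overlap a gene on the other strand. Over all settings and left-out libraries, 615 of the repeated values of the 10 genes kept their direction and side of the threshold, 40 lost their call, 19 gained one and 46 turned in sign, each of these 46 in a value that was not called in the fit as reported. The cause was not tested.

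Counts of genes called moved as follows. With age, 36 genes were called, 85 with no filter, 153 with DESeq2, 61 with the replicate block, 11 with the compared groups alone, and 8 to 59 with a library left out. In young METTL3 KO, 0 genes were called, and 1 with no filter. For METTL3 KO without an age, 8 of the 10 repair genes were called, 5 with library size alone, 5 with the replicate block, and 4 to 8 with a library left out. In the interaction 5 were called, and 4 to 8 with a library left out.

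Values that turned in sign were these. With age, Xrcc5 was at -0.001 with no filter, -0.039 with the replicate block and -0.049 to 0.084 with a library left out, and Prkdc at 0.007 with the offset and -0.114 to 0.089 with a library left out. In young METTL3 KO, Lig4 was at -0.001 with the offset, and with a library left out Lig4 lay at -0.064 to 0.051, Xrcc6 at -0.051 to 0.076, Polm at -0.12 to 0.06 and Xrcc4 at -0.193 to 0.022. In METTL3 KO without an age, Xrcc5 was at 0.056 with library size alone and -0.187 to 0.048 with a library left out, and Xrcc6 at -0.189 with no filter, -0.335 with the offset and -0.173 to 0.03 with a library left out. In the interaction, Xrcc5 was at -0.076 with no filter, -0.072 with the offset and -0.119 to 0.279 with a library left out, and Xrcc6 at -0.103, -0.28 and -0.149 to 0.183 in the same order. The median of all genes moved between -0.237 and 0.531 over settings in METTL3 KO without an age and between -0.183 and 0.503 in the interaction.

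Whether the replicate numbers of the labels pair the libraries could not be settled from 3 same-numbered pairs per comparison. Their deviations from the group means correlated at -0.125 to 0.009 without an age, -0.167 to 0.065 between old and young WT and -0.229 to 0.087 between young METTL3 KO and young WT. With the replicate block, Prkdc (-0.57, adjusted p = 0.0614), Dclre1c (-0.61, 0.0774) and Trp53bp1 (-0.44, 0.0853) were not called without an age, and Xrcc4 was not in the interaction (-0.72, 0.0731). Replicate 4 exists in old WT alone, so the block leaves it out in effect. Levels per kilobase of the longest transcript, in place of all annotated exon, differed by more than 1 SD in 6 of the 10 genes in young WT. Xrcc6 and Lig4 stayed first and second there, while Trp53bp1 moved above Xrcc5.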

Other observations

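Patterns over the 10 libraries with an age were set beside those of 11142 other genes as a description, with no test. The genes whose log2 CPM correlated most with Atm were Nup160 (Pearson 0.974, Spearman 0.964), Dync2h1 (0.973 and 0.83) and Zfp236 (0.973 and 0.939). For Prkdc they were Cltc (0.975 and 0.721), Igf2r (0.974 and 0.806) and Zfp668 (0.962 and 0.782), and for Xrcc6 Ei24 (0.973 and 0.927), Lmo4 (0.962 and 0.939) and Tnfaip8 (0.962 and 0.903). The libraries share their preparation, and old WT replicates 1 and 3 are the lowest of the 10 in Atm.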
